A study of Sus scrofa with 2 samples.

Results

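FSHR, the receptor for follicle-stimulating hormone, and LHCGR, the receptor for luteinising hormone, were followed in single somatic cells of 2 pig antral follicles. They were chosen by name as 2 of the 22342 genes in the count matrices, FSHR by its symbol (ENSSSCG00000029084) and LHCGR by its Ensembl identifier ENSSSCG00000008421, since its row carries no symbol. A cell is called positive for a receptor when it held at least 1 UMI (unique molecular identifier, a tag that marks 1 captured RNA molecule) of that gene. Among the barcodes with 2000 to 5000 detected genes and under 7% mitochondrial UMIs, FSHR was found in 176 of 9362 cells of follicle 1 (AF75) and in 199 of 7843 cells of follicle 2 (AF76), and LHCGR in 901 and 1042 cells.

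The follicles were more than 7 mm across and came from a single pubertal Landrace and Yorkshire cross pig of 210 days that had been given pregnant mare serum gonadotropin, a hormone with FSH-like and LH-like activity, before the ovaries were collected. The fluid of each punctured follicle was flushed out, cumulus-oocyte complexes were freed of cumulus cells with hyaluronidase, and the suspended cells went into 1 droplet library per follicle that captures the 3′ ends of polyadenylated RNA. Both groups therefore shared the animal, the hormone treatment and the handling, and differed only in the follicle and its library. With 1 library a follicle there is no replicate spread, so no test was made, and every interval below is a 95% interval for counting error alone. The libraries held 125409747 and 127414267 UMIs over 14289 and 15548 barcodes, with a median of 11254.5 and 13902 UMIs per cell within the limits. The libraries had 56 barcode sequences in common, 18 of them within the limits in both.

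FSHR and LHCGR are sister receptors of the glycoprotein hormone family. Each couples to the stimulatory G protein, which switches on adenylyl cyclase, raises cyclic AMP and activates protein kinase A. FSHR is the receptor of granulosa cells, the somatic cells that line the follicle (mural cells) and surround the oocyte (cumulus cells), and drives their growth and oestrogen synthesis. LHCGR is present in the theca, the layer of the follicle wall outside the granulosa cells and their basement membrane, and appears on mural granulosa cells late in follicle growth, where it receives the ovulatory LH surge. Granulosa cells respond to that surge with the growth factors AREG and EREG, which in turn induce the cumulus matrix genes TNFAIP6, PTGS2 and the hyaluronan synthase HAS2.

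The genes lie on the same strand of chromosome 3 in Sscrofa11.1, FSHR at chr3:91607236-91775255 and LHCGR at chr3:91964415-92023821 by the RefSeq annotation, with 189159 bases between them. The curated FSHR transcript has 10 exons and the LHCGR transcript has 11. GTF2A1L, at chr3:91991690-92083062, runs on the opposite strand and overlaps 32132 bases of LHCGR. The kit marks the strand of a read, but the counting setting is not given in the sources used here, so reads of GTF2A1L were not separated here from those of LHCGR. Because neighbours on 1 strand differed in their pattern across cells, the 250 bases before each RefSeq gene start are shown 5′ to 3′, for FSHR chr3:91606986-91607235 and for LHCGR chr3:91964165-91964414, both on the plus strand. Capitals mark the matches to 5 motifs searched on both strands.
FSHR: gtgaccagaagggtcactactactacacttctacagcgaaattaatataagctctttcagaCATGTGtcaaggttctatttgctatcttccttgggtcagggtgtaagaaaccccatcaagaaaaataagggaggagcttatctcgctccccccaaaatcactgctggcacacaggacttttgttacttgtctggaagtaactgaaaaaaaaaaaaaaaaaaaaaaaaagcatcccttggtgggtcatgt
LHCGR: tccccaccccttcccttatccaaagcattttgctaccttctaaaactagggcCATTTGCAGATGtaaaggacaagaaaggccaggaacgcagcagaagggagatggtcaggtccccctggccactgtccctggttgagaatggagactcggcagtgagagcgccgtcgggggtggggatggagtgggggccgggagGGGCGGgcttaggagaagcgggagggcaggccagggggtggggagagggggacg
The FSHR window held 1 E box (CANNTG), 189 bases before the gene start, and no GC box (GGGCGG). The LHCGR window held 2 adjoining E boxes, 198 and 192 bases before the start, and 1 GC box, 54 bases before it. Of the 19556 windows of the same length before protein-coding genes, 61.9% held an E box and 45.9% a GC box. Neither receptor window held the palindromic E box CACGTG, which overlaps the E box motif, the SF-1 site AAGGTCA or the cyclic AMP response element TGACGTCA, which were found in 6.39%, 3.21% and 1.70% of all windows. The GC content was 40.4% before FSHR and 62% before LHCGR, against a median of 57.6%. These matches describe the letters of the window and say nothing of binding.

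FSHR was sparse in both follicles. AF75 held 200 FSHR UMIs, or 1.80 CPM (counts per 1000000 UMIs of the cells, 95% interval 1.56 to 2.07), and AF76 held 235, or 2.16 CPM (1.89 to 2.45). The ratio of AF76 to AF75 was 1.20 (0.989 to 1.46), an interval that includes equal levels. That ratio, 0.26 on the log2 scale, depended on the cells and their weights, at 0.59 over all barcodes and 1.09 as a mean of cells. LHCGR gave 1002 UMIs in AF75, 9.01 CPM (8.46 to 9.58), and 1216 in AF76, 11.2 CPM (10.5 to 11.8). Its ratio of AF76 to AF75 was 1.24 (1.14 to 1.35), with no overlap of the intervals of the 2 libraries. The levels of the genes are not set against each other, since the capture of 3′ ends depends on how completely each gene's end is annotated.

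FSHR UMIs were gathered in fewer cells than an even spread would give. Cells with 2 or more FSHR UMIs numbered 22 in AF75 and 30 in AF76, where 2.31 and 3.81 would follow if the UMIs were spread in proportion to each cell's total. For LHCGR the numbers were 85 and 141, against 54.1 and 92.4. The highest count in any cell was 4 for FSHR and 5 for LHCGR, so most positive cells of either kind rest on 1 molecule, and a cell without a UMI cannot be read as a cell without the receptor.

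Detection of LHCGR followed sequencing depth in both follicles, whereas FSHR was found most often in the deepest band of AF75 and in the shallowest band of AF76. In 5 bands of cells of equal number ordered by total UMIs, the share of LHCGR positive cells went from 5.29% (4.32 to 6.40) to 14.3% (12.7 to 15.9) in AF75, and from 7.52% (6.26 to 8.93) to 18.2% (16.4 to 20.2) in AF76. The LHCGR level of these bands was 7.65 to 9.43 CPM in AF75 and 10.1 to 12.7 CPM in AF76. FSHR positive cells were instead most frequent in the shallowest band of AF76, at 8.28% (6.96 to 9.75) or 13.4 CPM, against 0.574% to 1.85% in its other 4 bands. In AF75 the share of FSHR positive cells was 1.39% (0.909 to 2.03) in the shallowest band, 1.12% to 1.92% over the first 4 bands and 3.20% (2.45 to 4.10) in the deepest. The median total was 8074 UMIs in FSHR positive and 13963 in FSHR negative cells of AF76, the opposite order to AF75 with 12658 and 11228.5.

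**Figure D1:**
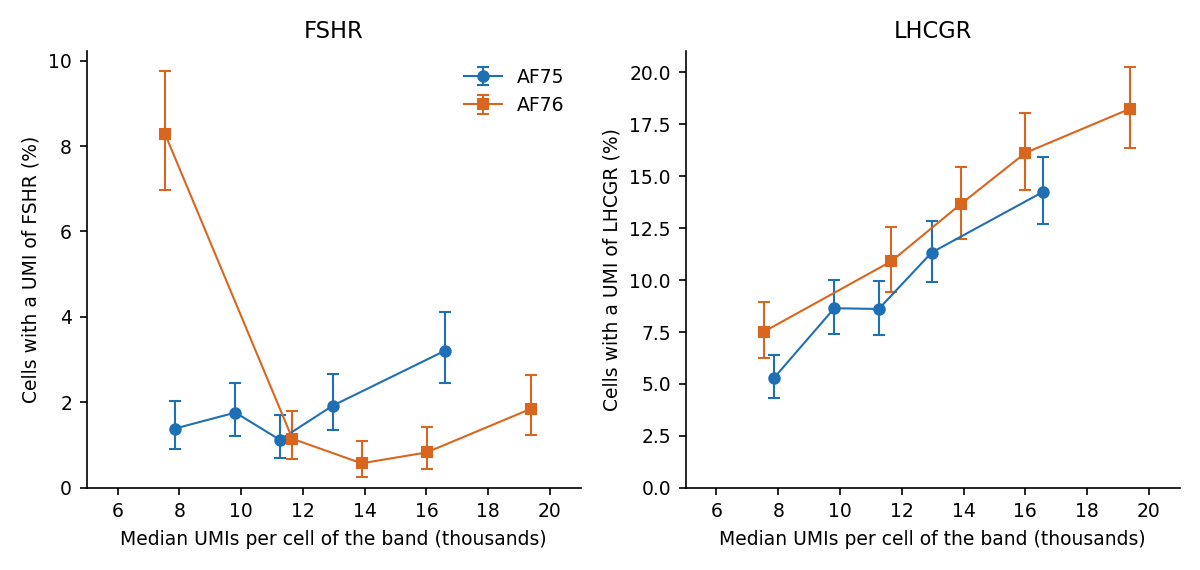
Share of cells with at least 1 UMI of FSHR (left) or LHCGR (right), in percent, against the median UMIs per cell of 5 depth bands in AF75 (blue circles) and AF76 (orange squares), with 95% Clopper-Pearson intervals. LHCGR climbs with depth in both follicles, while FSHR in AF76 is at 8.28% in the shallowest band and at most 1.85% in the others.

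When each cell was reduced to 5000 UMIs, the expected share of FSHR positive cells was 0.837% (0.660 to 1.04) in AF75 and 1.51% (1.252 to 1.809) in AF76, with 19 and 105 shallower cells left out. The corresponding LHCGR shares were 4.28% (3.88 to 4.71) and 5.29% (4.80 to 5.81). At this depth both receptors were found in a larger share of AF76 cells, and neither pair of intervals overlapped. For FSHR the order turned at 8000 UMIs, with 1.30% in AF75 and 0.963% in AF76, a depth that leaves out 520 of 686 shallow AF76 cells with most of its FSHR, described next as cluster 3.

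Cells of both follicles were grouped into 6 clusters without using the receptors or any listed pathway or marker gene, and each cluster is called here by its leading genes. Cluster 0 (TGFB3, ENPP2, IL33) held 6029 cells of AF75 and 5530 of AF76, and cluster 1 (TMEM178A, MRO, APOA1) held 1779 and 1311. Cluster 2 (PTGS2, ALPK2, CALCRL, SOX9) held 935 cells of AF75 and 24 of AF76, and cluster 3 (CEMIP, CCDC80, CCL26, CRABP2) held 686 cells of AF76 and none of AF75. Cluster 4 (TOP2A, CENPF, genes of dividing cells) held 451 and 120 cells, and cluster 5 (SPP1, CTSS, SCG2) held 168 and 172. The cumulus markers VCAN, TNFAIP6, SHAS2 (listed in the file under that name), PTX3 and PTGS2 summed to 14160 CPM in cluster 2 of AF75 and to between 478 and 5195 CPM in every other cluster of either follicle. The mural markers AREG and CYB5A summed to 290 CPM in the AF75 cells of cluster 2 and 508 CPM in the AF76 cells of cluster 3, against 4202 and 6768 CPM in cluster 0. The 24 AF76 cells of cluster 2 did not share the pattern of the AF75 cells, with 6089 CPM of the mural and 2405 CPM of the cumulus markers. INHA, the inhibin alpha chain of granulosa cells, was at 2368 to 24641 CPM in every cluster, while 10 leukocyte markers summed to at most 12.8 CPM apart from 226 CPM in cluster 5 of AF76.

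FSHR was concentrated in a different cluster in each follicle. In AF75, cluster 2 held 67.5% of all FSHR UMIs, with 135 UMIs at 13.3 CPM (11.2 to 15.8) and 117 positive cells, or 12.5% of the cluster. In AF76, cluster 3 held 79.1% of the FSHR UMIs, with 186 UMIs at 38.0 CPM (32.8 to 43.9) and 150 positive cells, or 21.9% of the cluster. Cluster 3 cells were shallow, with a median of 6436.5 UMIs, and made up 8.75% of the AF76 cells. They also carried more HBB, a haemoglobin chain of red cells, at 275 CPM against 9.58 to 50.1 CPM in the other AF76 clusters, and its part in the result was not tested. The 24 AF76 cells placed in cluster 2, which differ from the AF75 cells in the markers above, gave 2 FSHR UMIs or 6.75 CPM (0.817 to 24.4), too few to place their level.

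Elsewhere FSHR was low. Cluster 0 gave 14 UMIs at 0.195 CPM (0.107 to 0.328) in AF75 and 28 at 0.351 CPM (0.233 to 0.508) in AF76, and cluster 1 gave 1.24 CPM (0.804 to 1.83) and 0.824 CPM (0.471 to 1.34). With likely doublets removed and the cells clustered again, cluster 1 fell to 0.572 and 0.297 CPM, beside 0.221 and 0.317 CPM in cluster 0. Cluster 5 gave 1 UMI in each follicle. The dividing cells of cluster 4 stood between, at 3.43 CPM (2.22 to 5.06) in AF75 and at 0.900 CPM (0.109 to 3.25), from 2 UMIs, in AF76. In AF75 the order of FSHR levels was cluster 2, cluster 4, cluster 1, cluster 5 and cluster 0, and the intervals of neighbours separated cluster 2 from cluster 4 and cluster 4 from cluster 1. Those of clusters 1 and 5 and of clusters 5 and 0 overlapped, though cluster 1 lay above cluster 0 with doublets kept. In AF76 cluster 3 lay above every other cluster without overlap of the intervals, and those of clusters 0, 1, 4 and 5 all overlapped.

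LHCGR levels showed no such concentration by cluster. It was at 9.50 CPM (8.80 to 10.2) in cluster 0 of AF75 and 11.4 CPM (10.6 to 12.1) in cluster 0 of AF76, and at 9.59 CPM (8.28 to 11.0) and 10.7 CPM (9.30 to 12.3) in cluster 1. Cluster 2 of AF75, with the most FSHR of that follicle, had 7.11 CPM (5.56 to 8.95) of LHCGR, and cluster 3 of AF76, with the most FSHR of all, had 13.1 CPM (10.1 to 16.7). Within cluster 3 its 64 LHCGR UMIs lay in 41 cells, 12 of them with 2 or more, where an even spread would give 3.12. In cluster 0 of AF76 the corresponding numbers of cells were 94 and 70.7. The lowest levels in both follicles were those of the dividing cells, 5.48 CPM (3.92 to 7.47) and 5.40 CPM (2.79 to 9.44). Cluster 5 gave 8.18 CPM (4.68 to 13.3) and 10.0 CPM (6.41 to 14.9). In AF76 all clusters had overlapping intervals except cluster 4 against clusters 0 and 3, and in AF75 cluster 4 lay below clusters 0 and 1.

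**Figure D2:**
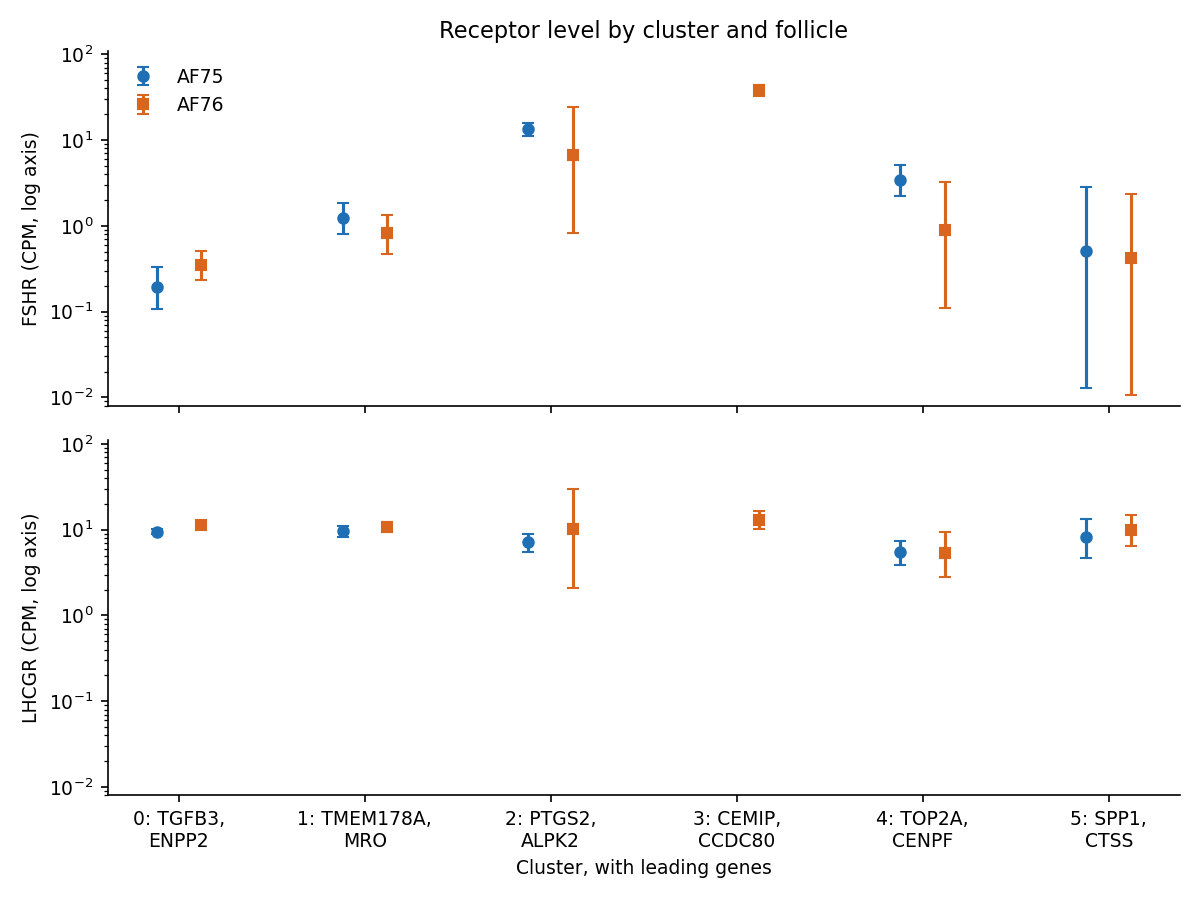
FSHR (top) and LHCGR (bottom) in CPM on a log axis for each of 6 clusters, named by leading genes, in AF75 (blue circles) and AF76 (orange squares), with exact 95% Poisson intervals. FSHR spans 0.195 to 38.0 CPM and peaks in cluster 2 of AF75 and cluster 3 of AF76, while LHCGR stays between 5.40 and 13.1 CPM.

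The contrast held at equal depth. Reduced to 5000 UMIs per cell, the FSHR share was 5.97% (4.57 to 7.72) in cluster 2 of AF75 and 17.1% (14.2 to 20.5) in cluster 3 of AF76, against 0.0977% and 0.156% in cluster 0. The LHCGR share was 3.33% (2.27 to 4.68) in cluster 2 of AF75 and 5.11% (3.43 to 7.13) in cluster 3, against 4.51% and 5.46% in cluster 0. The follicles were also compared within shared clusters by CPM, with all UMIs of each cell used. The ratio of AF76 to AF75 for FSHR was 1.80 (0.916 to 3.70) in cluster 0 and 0.663 (0.331 to 1.29) in cluster 1. For LHCGR it was 1.20 (1.08 to 1.32) and 1.12 (0.914 to 1.37). The higher LHCGR of AF76 was therefore seen within cluster 0 by CPM. At 5000 UMIs the intervals of its LHCGR shares overlapped, at 3.99% to 5.06% in AF75 and 4.88% to 6.10% in AF76. No FSHR difference between the follicles was detectable by CPM within a shared cluster with these counts.

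Finer clustering at a resolution of 0.8 gave 14 clusters, which divided the FSHR-rich cells and in part mixed them with other cells. Of the AF75 cells, 398 led by RBP4 and PTGS2 had 18.0 CPM of FSHR (14.4 to 22.3) and 5.80 CPM of LHCGR (3.82 to 8.43). A further 1095, led by TMEM178A and NAV2, had 5.28 CPM of FSHR (4.03 to 6.80) and 10.4 CPM of LHCGR (8.60 to 12.4). Of these 1095 cells, 537 came from cluster 2. Of the AF76 cells, 656 led by CEMIP and CCDC80 had 34.3 CPM (29.2 to 40.1) of FSHR and 13.9 CPM (10.7 to 17.8) of LHCGR. A separate set of 30 AF76 cells, led by the secreted signal WNT6, the keratin KRT8 and the chemokine CCL26, gave 28 FSHR UMIs in 18 cells, or 97.0 CPM (64.4 to 140). No LHCGR UMI was found in these 30 cells, where 3 UMIs would be 10.4 CPM, and the interval of 0 to 12.8 CPM overlaps that of the 656 cells. Cells led by the interferon-induced genes CXCL10 and RSAD2, 27 in each follicle, gave 0 and 1 FSHR UMIs and 2 and 4 LHCGR UMIs.

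Leukocytes, which are not known for either receptor, gave a reference for free RNA. The barcodes with at least 10 UMIs over at least 3 leukocyte markers numbered 4 in AF75 and 31 in AF76 with no limit on genes, and held no UMI of either receptor. With medians of 18452.5 and 3751 UMIs, 3 UMIs in these barcodes would be 21.9 CPM in AF75 and 14.4 CPM in AF76, both above the mean receptor levels. They therefore set no useful limit on free RNA for LHCGR or for FSHR in cluster 0. The FSHR levels of clusters 2 and 3 differed from that of cluster 0 of the same library by far more than counting error.

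Cells holding both receptors were few and occurred about as often as their shares within depth bands would give. Both were found in 17 cells of AF75, which is 9.66% of the FSHR positive and 1.89% of the LHCGR positive cells, and in 17 cells of AF76, 8.54% and 1.63%. Summed over the 5 depth bands, the product of the shares gave 18.7 and 20.3 cells. Each FSHR positive cell was also paired with an FSHR negative cell of the same follicle with a total within 2%. LHCGR was found in 20 of 176 such negative cells in AF75, 11.4%, and in 17 of 199 in AF76, 8.54%. The difference, positive minus negative, was -1.70 percentage points (-8.58 to 5.15) in AF75 and 0 (-5.92 to 5.92) in AF76. With the pairs also drawn from the same cluster it was 0 in both follicles (-6.79 to 6.79 and -6.01 to 6.01). Differences larger than these bounds were therefore not seen, and smaller ones could not have been detected.

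The cells with both receptors lay where FSHR lay. In AF75, 10 of the 17 were in cluster 2, where 8.13 would follow from the shares, and clusters 1, 4 and 0 held the other 4, 2 and 1. In AF76, 13 of the 17 were in cluster 3, where 8.97 would follow, 3 in cluster 0 and 1 in cluster 1. Of the 17 cells in each follicle, 2 were among the 6.9% of barcodes with the highest Scrublet score, a measure of how like 2 merged cells a barcode is.

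**Figure D3:**
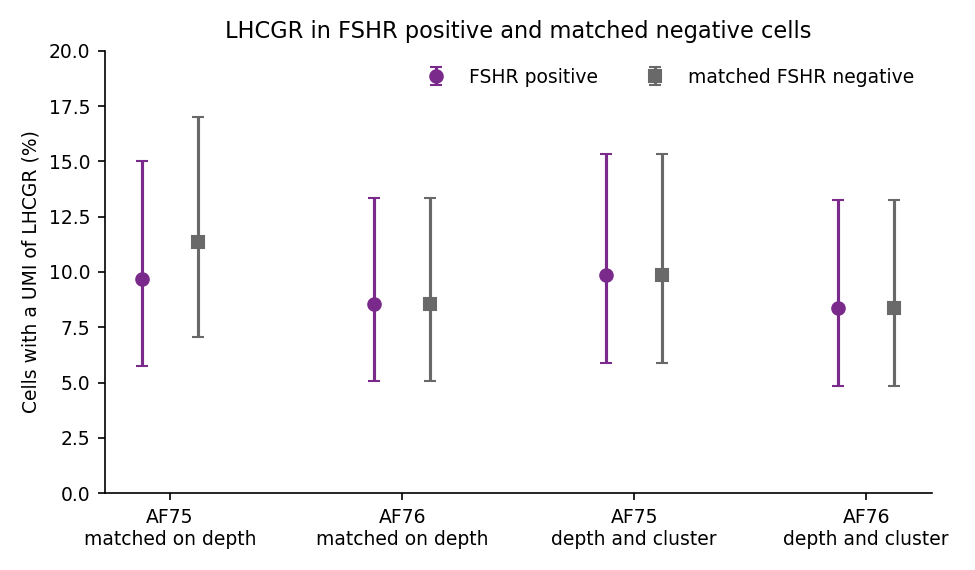
Share of cells with a UMI of LHCGR, in percent, among FSHR positive cells (purple circles) and paired FSHR negative cells (grey squares) of each follicle, paired on depth (left) or on depth and cluster (right), with 95% Clopper-Pearson intervals. All intervals overlap, and the shares lie between 8.38% and 11.4%.

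FSHR positive cells differed widely from negative cells of like depth. For 2986 genes with at least 200 UMIs over both cell sets in each follicle, the median size of the log2 ratio was 0.27 in AF75 and 0.27 in AF76. With the fold threshold set at a level 25% higher in 1 cell set than in the other, in the same direction in both follicles, 201 genes were higher, 6.73% of those compared, and 327 were lower, 11% of those compared. These counts carry no test, since cells of 1 library are not replicates.

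The genes most consistently higher in FSHR positive cells encode matrix, growth factor and signalling proteins. APOD, a lipid-binding secreted apolipoprotein, was at 280 CPM in positive and 45.9 CPM in negative cells of AF75 and at 120 and 19.9 CPM in AF76, ratios of 6.10 (4.98 to 7.54) and 6.05 (4.32 to 8.68). RGS4, which shortens G protein signals, was at 220 against 22.8 CPM in AF75 and 91.4 against 30.3 CPM in AF76, ratios of 9.67 (7.30 to 13.0) and 3.02 (2.25 to 4.10). INHBB, the beta B chain of inhibin and activin, was 6.56 (5.48 to 7.90) and 2.96 (2.28 to 3.89) times its level in negative cells. F3, tissue factor, had ratios of 6.46 (4.94 to 8.56) and 3.16 (2.58 to 3.90), and ID3, an inhibitor of basic helix-loop-helix factors, 8.34 (5.77 to 12.4) and 2.72 (2.30 to 3.24). The interferon-induced membrane protein IFITM3 (5.86 and 4.17), SERINC5 (4.08 and 4.53) and the matrix proteins THBS1 (4.35 and 2.94) and CTGF (3.12 and 2.86) were also among the 10 highest.

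Genes lower in FSHR positive cells included markers of mural cells. AREG, the EGF-like growth factor induced by LH, was at 563 against 3084 CPM in AF75 and 1951 against 4339 CPM in AF76, ratios of 0.183 (0.172 to 0.194) and 0.450 (0.433 to 0.467). GSTA1, a glutathione transferase, was at 3985 against 12040 CPM in AF75 and at 5164 against 11886 CPM in AF76. CTSL, a lysosomal protease, had ratios of 0.352 (0.338 to 0.367) and 0.412 (0.394 to 0.431). The others among the 10 lowest were PCOLCE2 (0.356 and 0.231), HSPB3 (0.307 and 0.399), ANXA1 (0.390 and 0.410), NEXN (0.344 and 0.427), STK17A (0.413 and 0.429), ANKRD22 (0.207 and 0.445) and LRP11 (0.310 and 0.447). ANKRD22, LRP11 and HSPB3 were also among the 10 leading genes of cluster 0, where FSHR was at or near its lowest, and APOD was among those of cluster 2.

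LHCGR positive cells, as detected, hardly differed from negative cells of like depth. An even spread by depth would give 945 and 1118 positive cells, near the 901 and 1042 found. Cells called negative may thus hold LHCGR that was missed, which would draw the ratios toward equal levels. Over 7458 genes the median size of the log2 ratio was 0.07 in AF75 and 0.06 in AF76. These medians rest on more cell pairs and genes than those of FSHR, so their sizes are not directly comparable. The direction was the same in both follicles for 4015 of the 7458 genes. Only 11 genes were higher past the fold in both follicles, 0.147% of those compared, and 13 were lower, 0.174% of those compared. BBOX1, the last enzyme of carnitine synthesis, was at 44.7 against 26.8 CPM in AF75 and 62.6 against 37.8 CPM in AF76, ratios of 1.67 (1.45 to 1.93) and 1.66 (1.49 to 1.83). CYP19A1, the aromatase that makes oestrogen, was at 31.7 against 24.8 CPM and 44.0 against 31.0 CPM, ratios of 1.28 (1.09 to 1.49) and 1.42 (1.26 to 1.60). Also higher were TUBA4A (1.71 and 1.58), the EGF-like growth factor EPGN (1.58 and 1.37), ENSSSCG00000034610 (1.41 and 1.33), GKN1 (1.28 and 1.61), FAM185A (1.30 and 1.27) and KCNQ1 (1.27 and 1.34). ZNF674 had ratios of 1.27 (0.965 to 1.68) and 1.30 (1.02 to 1.66), the first with an interval that includes equal levels.

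Of the 10 lowest genes in LHCGR positive cells, 5 act in cell division. TOP2A, which untangles DNA before division, was at 24.6 against 35.9 CPM in AF75 and 5.23 against 16.3 CPM in AF76, ratios of 0.684 (0.587 to 0.797) and 0.320 (0.247 to 0.412). The centromere proteins CENPF (0.683 and 0.467), CENPE (0.710 and 0.234) and CENPW (0.574 and 0.672) and the ubiquitin carrier UBE2C (0.662 and 0.448) were lower in both follicles. C11orf87 (0.517 and 0.628), F3 (0.588 and 0.653), PLAUR (0.756 and 0.709), RAI1 (0.770 and 0.775) and TGM3 (0.790 and 0.572) made up the rest of the 10 lowest. F3 was thus higher in FSHR positive and lower in LHCGR positive cells of both follicles when matched on depth, but within clusters its log2 ratio for LHCGR was 0.39 in AF75 and -0.37 in AF76.

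**Figure D4:**
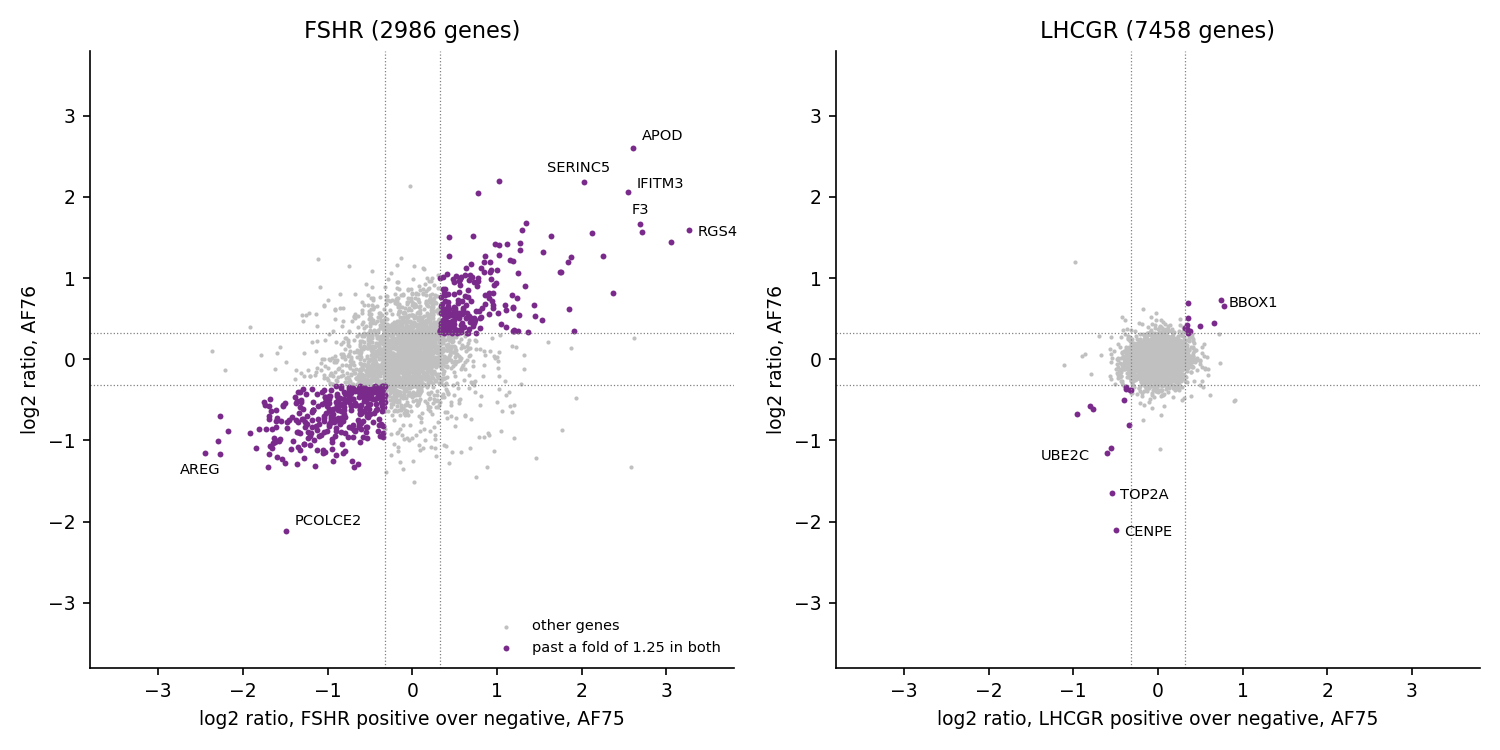
Ratio of CPM in positive over depth-matched negative cells on a log2 scale, AF75 on the horizontal and AF76 on the vertical axis, for FSHR (left, 2986 genes) and LHCGR (right, 7458 genes), 1 point per gene, with dotted lines at the fold threshold and genes past it in both follicles in purple. The FSHR points spread along the diagonal to a log2 ratio of 2.61 and 2.60 for APOD, while the LHCGR points lie closer to 0, with a median size of 0.07 and 0.06. The LHCGR points rest on more cell pairs, so the spreads are not directly comparable.

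The FSHR contrast was smaller within clusters. With the negative cells also drawn from the same cluster, the median size of the log2 ratio became 0.12 in AF75 and 0.10 in AF76. In these AF76 pairs, 9.42% of positive and 2.09% of negative cells were among the barcodes with the highest Scrublet score. In AF75 the shares were 7.56% and 6.40%. The part of likely doublets in the ratios within clusters was not tested. Of 2772 genes, 15 were then higher past the fold in both follicles, 0.541% of those compared, and 25 were lower, 0.902% of those compared. Only 1462 of the 2772 genes had the same direction in both follicles. Genes named here as higher or lower within clusters were picked as extremes of these same ratios. APOD kept a higher level in FSHR positive cells, at 271 against 171 CPM in AF75 and 113 against 80.2 CPM in AF76, ratios of 1.58 (1.39 to 1.80) and 1.42 (1.14 to 1.75). TNFAIP6, a protein that cross-links the cumulus matrix, was at 4670 against 3311 CPM in AF75 and 94.0 against 65.4 CPM in AF76, ratios of 1.41 (1.37 to 1.45) and 1.44 (1.14 to 1.82). SERINC5 (1.38 and 1.43), IFITM3 (1.43 and 1.36), the interleukin receptor IL1R1 (1.38 and 1.37), PCDH17 (1.34 and 1.94) and F3 (1.57 and 1.27) were also higher within clusters. Of the genes higher on depth matching alone, RGS4, THBS1 and CTGF did not keep their direction in AF76, with log2 ratios of -0.041, -0.14 and -0.17. SCG2, a neuroendocrine granule protein, was lower at 63.3 against 386 CPM in AF75 and 222 against 379 CPM in AF76, and CTSL was lower with ratios of 0.567 (0.540 to 0.594) and 0.742 (0.706 to 0.780).

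For LHCGR the same step left 3 genes higher, 0.0402% of 7455, and 4 lower, 0.0537% of them. The direction was the same in both follicles for 3924 of the 7455 genes. BBOX1 was still higher, with ratios of 1.53 (1.33 to 1.76) and 1.41 (1.28 to 1.55), as was TUBA4A with 1.53 (1.15 to 2.04) and 1.40 (1.06 to 1.86). C11orf87 was still lower, at 0.603 (0.483 to 0.750) and 0.607 (0.498 to 0.739). CYP19A1 had ratios of 1.23 (1.05 to 1.44) and 1.37 (1.22 to 1.54), the first short of the fold. Of the 2 listed cycling genes that could still be compared once clusters were matched, none was past the fold in both follicles.

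**Figure D5:**
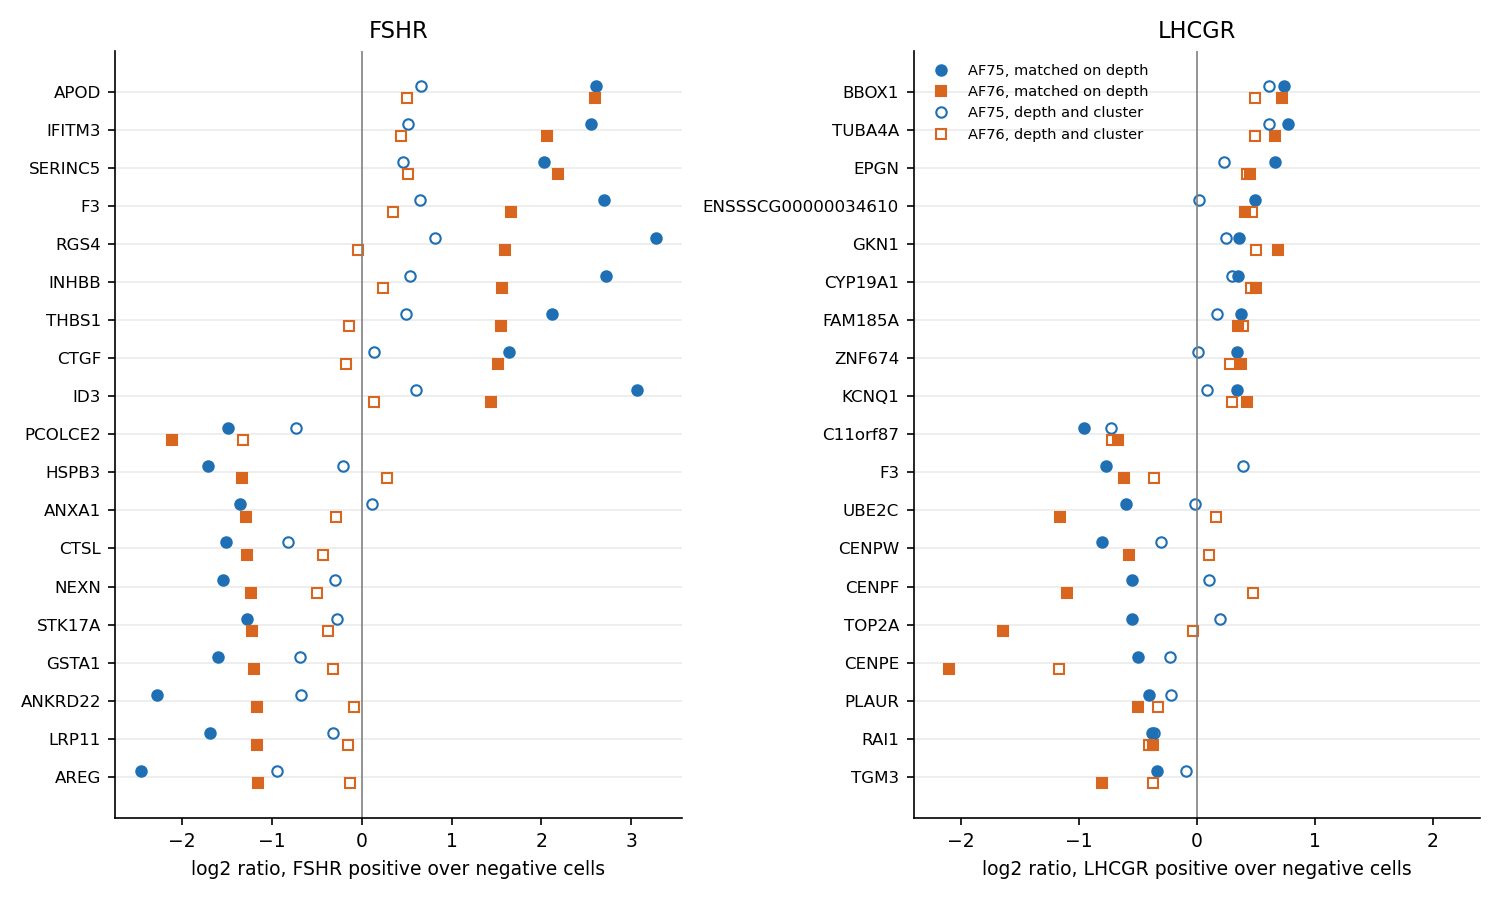
Log2 ratio of CPM in positive over negative cells for genes among the 10 highest and 10 lowest of FSHR (left) and LHCGR (right), in AF75 (blue circles) and AF76 (orange squares), with negative cells matched on depth (filled) or on depth and cluster (open). Most open symbols lie closer to 0 than the filled ones, APOD for example at 0.66 and 0.50 in place of 2.61 and 2.60.

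Genes of the receptor pathway were then read from lists, beside the shares over all genes given above, with cells matched on depth. Within clusters every list call for FSHR given below was lost, and of all lists only TNFAIP6 then passed the fold in both follicles, while for LHCGR no list gene did. Of the hormone chains, CGA, FSHB and TSHB were listed and none had enough UMIs to compare, and of the receptor family LGR4 alone could be compared, for LHCGR only, with ratios of 1.01 (0.857 to 1.18) and 1.23 (1.06 to 1.43). Of 13 Gs subunit and adenylyl cyclase genes in the file, 3 could be compared for FSHR, and 1, the gamma subunit GNG12, was lower in FSHR positive cells (0.759 and 0.603). GNB1 (1.08 and 1.04) and GNB2 (1.16 and 1.15) were not past the fold. The 3 G inhibitory alpha subunits compared, GNAI1, GNAI2 and GNAI3, were also short of it, at 0.971 to 1.21.

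Among 7 protein kinase A genes compared for FSHR, the anchoring protein AKAP12 was higher (1.64, 1.27 to 2.13, and 2.87, 2.43 to 3.40) and none was lower in both follicles. PRKAR1A, a regulatory subunit, had ratios of 1.74 (1.58 to 1.91) and 1.09 (0.976 to 1.22). Of 3 desensitisation genes compared, RGS4 was higher, as above, and RGS2, which also shortens G protein signals, was lower (0.771, 0.728 to 0.816, and 0.521, 0.489 to 0.555). No phosphodiesterase, the enzymes that break down cyclic AMP, reached the minimum for FSHR. For LHCGR 0 of 7 Gs and cyclase genes, 0 of 8 kinase genes, 0 of 8 cyclic AMP effector genes, 0 of 3 phosphodiesterases and 0 of 9 desensitisation genes passed the fold in both follicles, with list medians of the log2 ratio between -0.08 and 0.13, while the medians over all genes were 0.0038 and -0.0021.

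Of 8 genes known as FSH targets that could be compared for FSHR, 2 were higher and 1 lower. INHBB was higher, as given above, and so was GRB14, an adaptor that damps insulin receptor signals (1.60, 1.40 to 1.83, and 1.96, 1.75 to 2.21). INHA, the inhibin alpha chain, was lower, at 9772 against 20362 CPM in AF75 and 9851 against 21291 CPM in AF76. INHBA, the beta A chain, had ratios of 3.68 (3.56 to 3.81) in AF75 and 1.10 (1.01 to 1.21) in AF76. CYP19A1 was too low for comparison with FSHR, and was the only 1 of 12 FSH targets past the fold for LHCGR, where it was higher.

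Of 8 genes known as LH targets that could be compared for FSHR, the immediate-early factor EGR1 was higher (2.45, 2.07 to 2.92, and 3.01, 2.50 to 3.63) and AREG lower. PGR, the progesterone receptor induced by LH, was at 256 against 235 CPM in AF75 and at 118 against 252 CPM in AF76. None of 11 LH targets passed the fold for LHCGR. AREG itself was at 3186 against 2590 CPM in AF75 and 5447 against 5427 CPM in AF76, ratios of 1.23 (1.212 to 1.249) and 1.00 (0.994 to 1.01).

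Of 10 steroid synthesis genes compared for FSHR, 4 were lower and none higher, with a list median of the log2 ratio of -0.76 in AF75 and -0.52 in AF76 against -0.07 and 0.02 over all genes. SCARB1, the receptor that takes up cholesterol from HDL, was at 825 against 1451 CPM in AF75 and at 635 against 1409 CPM in AF76. HSD17B12 (0.611 and 0.767) and CYB5A (0.296 and 0.697) were also lower. CYP11A1, which cuts the cholesterol side chain, differed little, at 1698 against 1784 CPM in AF75 and at 1730 against 1669 CPM in AF76. For LHCGR, CYP19A1 was the 1 of 13 past the fold.

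Among the granulosa identity genes compared for FSHR, INHA was lower, as given above. Both mural markers, AREG and CYB5A, were lower. Of the cumulus markers, VCAN, a matrix proteoglycan, was higher (3.76, 3.63 to 3.89, and 1.28, 1.17 to 1.40), and TNFAIP6 was far apart in the follicles, at 4677 against 779 CPM in AF75 and 88.5 against 222 CPM in AF76. INSL3, listed with theca and stroma, was lower in FSHR positive cells (0.352 and 0.689). No leukocyte, endothelial, red cell or oocyte marker had enough UMIs for either receptor. For LHCGR, 3 of 3 cycling genes compared were lower and 0 of 7 granulosa identity, 0 of 2 mural and 0 of 2 cumulus genes passed the fold.

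Across the clusters some listed genes separated the FSHR-rich cells of AF75 from those of AF76. Cluster 3 of AF76 had the smooth muscle genes MYH11 at 101 CPM, ACTA2 at 60.1 CPM and TAGLN at 202 CPM, which elsewhere were at most 14.9 CPM in clusters of over 100 cells. It also held more of the granulosa factors WT1 (34.1 CPM), FOXO1 (498 CPM) and the anti-Müllerian hormone receptor AMHR2 (42.9 CPM) than clusters 0, 1, 4 and 5 of AF76, where these were at most 3.33, 65.3 and 3.84 CPM. PDE8B, a phosphodiesterase specific for cyclic AMP, was at 72.8 CPM there and at most 2.70 CPM in those clusters, and LGR4 was at 142 CPM against at most 33.7 CPM. These 5 genes are not set here against cluster 2 of AF75 one by one. There all listed phosphodiesterases summed to 70.0 CPM, against 128 CPM in cluster 3. The listed receptor family, without FSHR and LHCGR, summed to 11.4 CPM against 142 CPM. Cluster 2 of AF75 instead had the highest TNFAIP6 (5167 CPM), VCAN (8485 CPM), INHBA (7862 CPM) and INHBB (429 CPM). INHA was lowest in these clusters, with 8191 CPM in the PTGS2 cells of AF75 and 2368 CPM in the CEMIP cells of AF76, against 22972 and 24641 CPM in cluster 0.

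Over the 10 cluster and follicle sums of at least 100 cells, the genes most alike FSHR by Pearson correlation of log2(CPM + 1) among 9714 genes were RPS19 (r = 0.98), ENSSSCG00000031838, YBX3, PPP2CA and HNRNPF, all highest in cluster 3 of AF76. Those most alike LHCGR were ENSSSCG00000033100 (r = 0.93), ADAL, C17orf49, NPDC1 and HERC2, all highest in the same cluster. The sums share libraries and 1 cluster weighs heavily on each, so these values are descriptions.

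FSHR was also present in the barcodes with under 2000 genes, which the limits leave out. In AF75 these 4595 barcodes held 20 FSHR UMIs, 2.57 CPM (1.57 to 3.97), and 41 LHCGR UMIs, 5.27 CPM (3.78 to 7.14). In AF76 the 7397 such barcodes held 94 FSHR UMIs, 7.96 CPM (6.43 to 9.74), against 2.16 CPM within the limits, and 97 LHCGR UMIs, 8.21 CPM (6.66 to 10.0). The AF76 barcodes with FSHR in this class had CCDC80, a leading gene of cluster 3, at 1183 CPM (1033 to 1348), against 151 CPM in those without. CEMIP, another leading gene of cluster 3, was at 137 CPM (89.3 to 200) against 119 CPM, levels that overlapped. In all, 83 AF76 barcodes of this class held FSHR, beside the 199 within the limits.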

How the data were processed

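The deposited values are UMI counts per gene and barcode, which the authors obtained from the reads with CellRanger 6.0.2 (genome Sscrofa11.1). The deposited barcodes carry no further filter. Counts were used as deposited, with the study's limits on genes and mitochondrial UMIs, 1 library per follicle and both follicles from 1 pig. LHCGR was named from a table of Ensembl identifiers. The receptors and all lists were chosen with earlier results of these data known.

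CPM is the UMIs of a gene per 1000000 UMIs of the cell set. The 95% intervals (Clopper-Pearson for a share, exact conditional for a ratio, exact Poisson for a CPM value) cover counting error only. Shares were thinned to 5000 UMIs per cell by the hypergeometric expectation. Clusters came from Seurat 5.3.0 integration (2000 variable genes without 172 receptor and list genes, 40 components, the lowest resolution in steps of 0.02 with 6 clusters, 0.26). Doublets were kept, and Scrublet scores (scanpy 1.11.5) served as an alternative. Each positive cell was paired with the nearest unused negative cell of its follicle in total UMIs, within 2%, which left no cell unpaired when clusters were not matched. Genes named are the list members and, for each receptor, the 10 highest and 10 lowest by the smaller log2 ratio of the follicles among genes with 200 UMIs in each, and the 5 most alike over cluster sums. Some of these genes are not reported here. On simulated counts with 200 genes changed 2-fold, the pairing step recovered 100% of them in AF75 for each receptor, with 3.80% of unchanged genes past 1.25-fold for FSHR (3358 genes) and 1.65% for LHCGR (7533 genes). These shares are for 1 follicle, while the counts above required the fold in both, so they are not error rates for those counts. A 2-fold change is far past 1.25-fold, so the recovery says nothing of changes near that fold. The changed genes had a median log2 size of 1.01 for each receptor, so dilution by negative cells with a missed receptor was not simulated. Promoter windows came from RefSeq on Sscrofa11.1. Python 3.11.15, scipy 1.17.1 and R 4.3.3 were used.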

Additional observations from a re-analysis of the deposited data

Results flagged for a closer look

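Barcodes with under 2000 genes, which lie outside the limits and enter no comparison by cluster, follicle ratio or matched pair, held both receptors. Their levels were 2.57 CPM of FSHR and 5.27 CPM of LHCGR in AF75, and 7.96 CPM of FSHR and 8.21 CPM of LHCGR in AF76. These rest on 20, 41, 94 and 97 UMIs in that order, each more than the 3 UMIs that a count of 0 allows. The leukocyte-marked barcodes held too few UMIs to serve as a reference for these levels.

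POR, the electron donor of the steroid-synthesising cytochromes, and TNFAIP6 differed in opposite directions in the follicles when FSHR positive cells were set against depth-matched negative cells. The ratio of POR was 2.01 in AF75 and 0.694 in AF76, and that of TNFAIP6 was 6.01 and 0.399. The difference between the follicles was not tested, as each follicle is 1 library.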

How the results depend on the processing

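No paired analysis was possible because each follicle is 1 library and no result comes from a test. Leaving out a replicate was not possible for the same reason. The cause was not tested for any of the following shifts, except where the way an alternative was built shows it.

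The FSHR level of AF76 became 2.57 CPM at 500 to 6000 genes, 2.73 over all barcodes, 2.49 without mitochondrial and ribosomal genes in the library size and 3.72 as a mean of cells, and its log2 ratio to AF75 became 0.59 over all barcodes and 1.09 as a mean of cells. LHCGR without those genes in the library size was at 10.3 and 12.9 CPM. By construction, shares moved with the thinning depth or a minimum of 2 UMIs. At 3500, 8000 and 5000 UMIs with at least 2 UMIs of the gene, FSHR gave 0.592%, 1.30% and 0.0368% in AF75 and 1.19%, 0.963% and 0.205% in AF76, and LHCGR 3.03%, 6.71% and 0.193% in AF75 and 3.75%, 8.17% and 0.348% in AF76. Thinning to 8000 UMIs left out 520 of the 686 cells of cluster 3, and FSHR was then in a smaller share of AF76 than of AF75 cells.

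With doublets removed, FSHR in cluster 1 was at 0.572 CPM in AF75 and 0.297 in AF76. At a resolution of 0.8, the cluster with most cells of cluster 2 had 5.28 CPM of FSHR and 10.4 CPM of LHCGR in AF75, and that with most of cluster 0 had 12.4 CPM of LHCGR in AF76. Genes higher and lower in FSHR positive cells numbered 547 and 591 at a minimum of 50 UMIs, 57 and 63 with positive cells at 2 or more UMIs, and 15 and 25 within clusters. For LHCGR they numbered 54 and 104, 6 and 4, and 3 and 4, with 6 higher when paired on number of genes.

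Within clusters the log2 ratio changed sign for FSHR in AF76 at RGS4 (-0.041), THBS1 (-0.14), CTGF (-0.17) and HSPB3 (0.28) and in AF75 at ANXA1 (0.11), and for LHCGR in AF75 at F3 (0.39), CENPF (0.10) and TOP2A (0.20) and in AF76 at UBE2C (0.17), CENPW (0.10) and CENPF (0.48). With positive cells at 2 or more UMIs it changed sign at THBS1 (-0.070, FSHR, AF76), EPGN (-1.05, AF76), FAM185A (-0.31, AF75), KCNQ1 (-0.17, AF75) and C11orf87 (0.17, AF76), and when paired on number of genes at PLAUR (0.059) in AF75. The other values for levels, shares, overlap and counts, 104 in all, moved by less than their interval or 1.5 times. The gene ratios were less stable. Over all alternatives, 434 of their values were counted as unchanged, 134 as moved and 17 as changed in sign. Within clusters 22 were unchanged, 43 moved and 11 changed sign. With positive cells at 2 or more UMIs, 7 were unchanged, 41 moved and 5 changed sign.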
